A study of Homo sapiens with 12 samples.

Results

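The Polo-like kinases, the Aurora kinases and the other kinases that drive cells through mitosis were examined in 4 A549 lines that differ in the AHR they carry. The members were PLK1, PLK2, PLK3, PLK4, AURKA, AURKB, CDK1, NEK2, BORA and WEE1, taken as the rows of the count table with these symbols, which gave 10 of 60623 genes. A549 is an established human lung adenocarcinoma line, and AHR is the aryl hydrocarbon receptor, a transcription factor switched on by ligands. V cells received an empty lentiviral vector, WT cells received HA-tagged wild-type AHR, SA cells HA-AHR with S489A and SD cells HA-AHR with S489D, and every line was selected with hygromycin and kept its own AHR gene. Alanine cannot be phosphorylated at this position, and aspartate carries a negative charge there, as a phosphate does. PLK1 is the kinase the study assigned to this serine, so the comparisons ask whether the state of the site on AHR went with different transcript levels of the kinase itself and of its relatives. Polyadenylated RNA was sequenced from 3 biological replicates of each line, 12 libraries in all. Each construct was represented by 1 line, so a difference between constructs and any other difference between the lines cannot be told apart.

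Entry into mitosis rests on CDK1 bound to a B-type cyclin. WEE1 holds CDK1 inactive by phosphorylating it, and PLK1 helps to release it, after BORA and AURKA have switched PLK1 on. AURKA then acts at the spindle poles, AURKB acts at the chromosomes and in cytokinesis as the enzyme of the chromosomal passenger complex, NEK2 helps the centrosomes to separate, and PLK4 starts the assembly of new centrioles. PLK2 and PLK3 share the fold of PLK1 but are best known as stress-responsive and early-induced genes. The transcripts of PLK1, AURKA, AURKB, CDK1 and NEK2 are known to peak late in the cell cycle. BORA is not a kinase but the activator of one. In RNA from a whole culture, fewer cells in the late cell cycle and less RNA per cell cannot be told apart.

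Total expected counts ranged from 7844045 to 11765576 per library, so that 3 counts corresponded to 0.255 to 0.382 CPM, the count scaled to the size of the library. AHR, the gene that was introduced, averaged 69.1 CPM in V cells, 266 in WT cells, 223 in SA cells and 210 in SD cells, and the expression of the construct therefore also differed between lines (SD against WT, log2 fold change -0.35, adjusted p = 0.00774, edgeR, lost without SD replicate 2 or WT replicate 2 or 3 at 0.0586 to 0.0659). Part of the AHR reads was assigned to an overlapping gene model, and with it the means were 69.1, 471, 392 and 295 CPM. The part of the AHR level in the kinase values was not tested. The epithelial keratins KRT8 and KRT18 were at or above 1910 CPM in every library, while EPCAM and KRT19 were at or below 1.75 CPM, and 4 of 5 markers of alveolar type 2 cells, SFTPC and NKX2-1 among them, stayed under 1 CPM. Of 5 fibroblast markers COL1A2 and DCN had no count, LUM and PDGFRA stayed under 1 CPM and COL1A1 was at 5.34 to 13.1 CPM, and the 3 endothelial markers together reached at most 0.316 CPM. Of these VWF had no count, and of 4 leukocyte markers CD3E had none and PTPRC was at most 0.171 CPM, while CD14 and CD68 were detected.

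All 10 members were well enough covered to be tested in every comparison, and all of their expected counts were whole numbers. Per kilobase of merged exons, AURKA had the highest mean level over the 12 libraries at 43.5 CPM, followed by PLK2 at 39.3, PLK1 at 36.8 and AURKB at 36.4. Each of these 4 overlapped with its neighbours among them over the libraries. CDK1 followed at 22.7 and NEK2 at 17.2 CPM per kilobase, and each stood apart from its neighbours in every library. PLK4 at 6.73 and WEE1 at 5.22 overlapped with each other, as did BORA at 3.81 and PLK3 at 3.17, the lowest. Counting error was 2.33% of the mean count for PLK2 and 9.73% for PLK3, so the weakly expressed members were the least precise. BORA, on chromosome 13 (72727749 to 72756198, plus strand, GRCh38), shares 1180 exon bases, 37% of its exons, with DIS3 on the opposite strand. DIS3 was at 45.4 to 61.7 CPM, and whether reads were counted by strand is not given in the sources used here, so the BORA values are uncertain. The gene models on the other strand of PLK1 and PLK3 did not exceed 0.818 CPM.

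**Figure D1:**
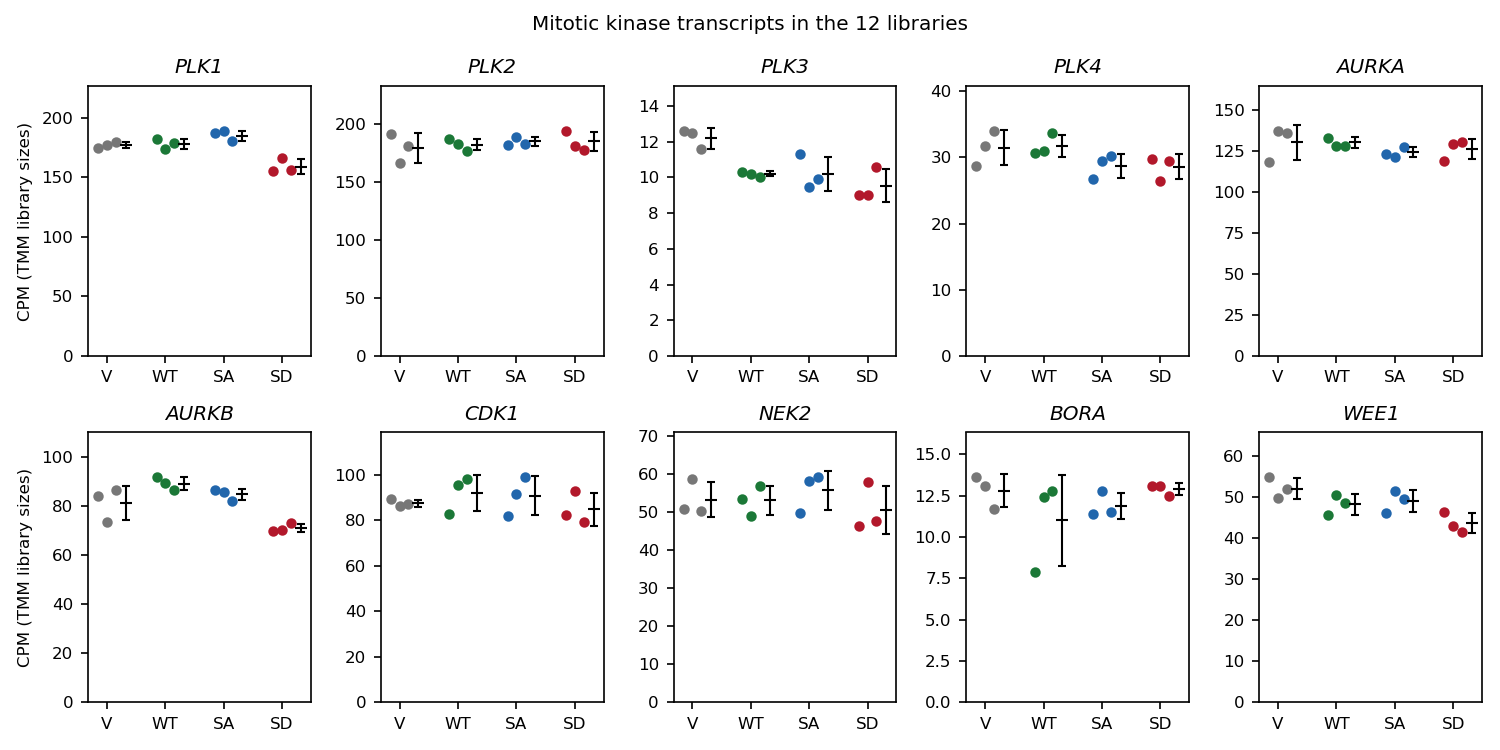
Level of each of the 10 mitotic kinase genes in CPM (vertical axes start at 0) in the V, WT, SA and SD lines; each point is 1 library, and the black bars give mean ± SD of 3 libraries. PLK1 and AURKB are lowest in the 3 SD libraries, while AURKA and PLK2 lie at like levels in all lines.

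The SD libraries were the lowest in PLK1 and AURKB, for AURKB by a small margin from V cells (72.9 against 73.5 CPM). In all 3 SD libraries both genes lay below each of the 9 libraries of the other lines. Of 15453 genes compared in this way, 1.12% lay below all 9, and 2 of the 10 members did. This was looked for after the values were seen, and it is given as a description.

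PLK1 (ENSG00000166851, chromosome 16, 23677656 to 23690367, plus strand) was at 175, 177 and 180 CPM in V cells, 182, 174 and 179 in WT cells, 187, 189 and 181 in SA cells and 155, 166 and 156 in SD cells. The means were 185 ± 4.25 CPM in SA cells, 178 ± 3.87 in WT cells, 177 ± 2.50 in V cells and 159 ± 6.14 in SD cells (SD, n = 3). SA and WT cells overlapped, WT and V cells overlapped, and SD cells overlapped with no other line. In edgeR's quasi-likelihood test the difference was -14.3% for SD against SA (log2 fold change -0.22, 95% interval -0.34 to -0.10, adjusted p = 0.155). It was -10.9% for SD against WT (adjusted p = 0.214) and -10.3% for SD against V (adjusted p = 0.108). None passed the threshold of 0.05 after adjustment over all genes tested, although the unadjusted p-values were 0.000844, 0.0063 and 0.00923. WT and V cells differed by 0.503% in PLK1, with an interval of -0.09 to 0.11 on the log2 scale (edgeR, adjusted p = 0.962). A change of PLK1 with wild-type AHR was not detectable at this precision.

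AURKB (ENSG00000178999, chromosome 17, 8204733 to 8210600, minus strand) was at 91.6, 89.4 and 86.4 CPM in WT cells, 86.4, 85.8 and 82.1 in SA cells, 84.1, 73.5 and 86.4 in V cells and 69.8, 70.3 and 72.9 in SD cells. The 3 SD libraries lay close together and below the lowest V library, which was itself apart from the other V libraries. AURKB fell by 20.3% in SD against WT cells (log2 fold change -0.33, SE 0.065, 95% interval -0.46 to -0.19, edgeR adjusted p = 0.0122), lower in 3 of 3 SD libraries. The call was lost without SD replicate 2 (edgeR adjusted p = 0.0721) or without WT replicate 1 (0.0863), with log2 fold changes of -0.32 and -0.31. Against SA cells the difference was -16.2% (log2 fold change -0.25, edgeR adjusted p = 0.150), and against V cells it was -12.6% (-0.19, adjusted p = 0.119). AURKB was 9.45% higher in WT than in V cells without passing the test (edgeR adjusted p = 0.308), and the lowest WT library lay just above the highest V library.

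AURKA, the relative that acts at the spindle poles, did not share this pattern. It was at 118, 137 and 136 CPM in V cells, 133, 128 and 128 in WT cells, 123, 121 and 127 in SA cells and 119, 129 and 130 in SD cells. SD cells overlapped with each other line, and the interval of SD against WT ran from -0.16 to 0.08 on the log2 scale. The ratio of AURKB to AURKA within a library was 0.688 ± 0.0127 in WT cells, 0.686 ± 0.0338 in SA cells, 0.628 ± 0.088 in V cells and 0.565 ± 0.0204 in SD cells (SD, n = 3). The ratios of SD cells lay below those of WT and SA cells, while the lowest V ratio, 0.538, lay below all of them. The ratio of PLK1 to PLK2 was 0.862 ± 0.0606 in SD cells and between 0.980 and 1.00 on average in the other lines, and the highest SD ratio, 0.915, overlapped with the lowest V ratio, 0.914. These ratios do not depend on the scaling of a library to its total.

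Promoter sequence was set beside these levels because PLK1, CDK1 and their relatives are textbook genes of the late cell cycle program. RefSeq promoter windows (GRCh38.p14, 250 bases before to 50 after the start) were matched for 8 of the 10 members, and none was matched for AURKA and WEE1. Letters searched on both strands were TTTGAA, the cell cycle genes homology region (CHR), CCAAT, the box bound by NF-Y, and GCGTG, the core of the element that AHR binds. The 250 bases before the start are printed for PLK1 (chr16:23678639-23678888, plus strand) and AURKB (chr17:8210250-8210499, minus strand), whose SD libraries lay below all others, and for CDK1 (chr10:60778228-60778477, plus strand) and PLK2 (chr5:58460087-58460336, minus strand), whose SD libraries overlapped with those of each other line. Capitals mark CHR and CCAAT, which read TTCAAA and ATTGG where they lie on the opposite strand.
PLK1: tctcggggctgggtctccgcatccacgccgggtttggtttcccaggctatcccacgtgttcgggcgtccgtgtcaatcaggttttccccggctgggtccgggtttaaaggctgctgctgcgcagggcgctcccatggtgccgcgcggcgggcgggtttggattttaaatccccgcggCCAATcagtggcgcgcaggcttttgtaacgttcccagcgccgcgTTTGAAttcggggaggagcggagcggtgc
AURKB: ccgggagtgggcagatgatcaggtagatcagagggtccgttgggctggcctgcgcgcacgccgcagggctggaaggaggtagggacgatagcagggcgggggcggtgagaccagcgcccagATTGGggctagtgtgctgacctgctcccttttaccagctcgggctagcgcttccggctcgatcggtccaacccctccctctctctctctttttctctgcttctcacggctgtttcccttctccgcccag
CDK1: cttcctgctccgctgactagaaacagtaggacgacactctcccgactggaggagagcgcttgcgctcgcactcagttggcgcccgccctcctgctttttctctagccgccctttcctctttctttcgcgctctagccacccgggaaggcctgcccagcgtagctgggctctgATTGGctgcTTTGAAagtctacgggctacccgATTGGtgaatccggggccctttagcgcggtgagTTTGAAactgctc
PLK2: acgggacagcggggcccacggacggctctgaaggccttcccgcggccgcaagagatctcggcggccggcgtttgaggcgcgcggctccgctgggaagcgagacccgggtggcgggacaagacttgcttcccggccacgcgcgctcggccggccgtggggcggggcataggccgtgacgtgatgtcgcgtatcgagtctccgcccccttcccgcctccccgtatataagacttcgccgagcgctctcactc

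A CHR match began 29 bases before the RefSeq start of PLK1, and its CCAAT match 73 bases before it. CDK1 held 3 CHR matches, at -69, -13 and 10, and 2 CCAAT matches, at -78 and -46. AURKB held a CCAAT match at -129 and no TTTGAA in this window, and PLK2 held neither motif. The AURKB window lies inside the annotated gene, whose upstream end is at 8210600, so the bases before that end were not searched. The windows of PLK1 and PLK4 also lie inside their annotated genes. Among the others BORA held a CHR match, and NEK2, BORA and PLK4 held CCAAT matches. In all, 3 of the 8 member windows held CHR, 6 held CCAAT and 5 held GCGTG, those of PLK1, PLK2, PLK3, AURKB and BORA. Of 35116 RefSeq windows of the same length 15.2% held CHR, 34.6% CCAAT and 36.5% GCGTG, and no match of 1 motif shared a base with another in the member windows. PLK1 and AURKB both held CCAAT and GCGTG, and so did BORA, whose SD libraries lay within the range of V cells. A match of letters is a description and says nothing of binding in these cells.

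**Figure D2:**
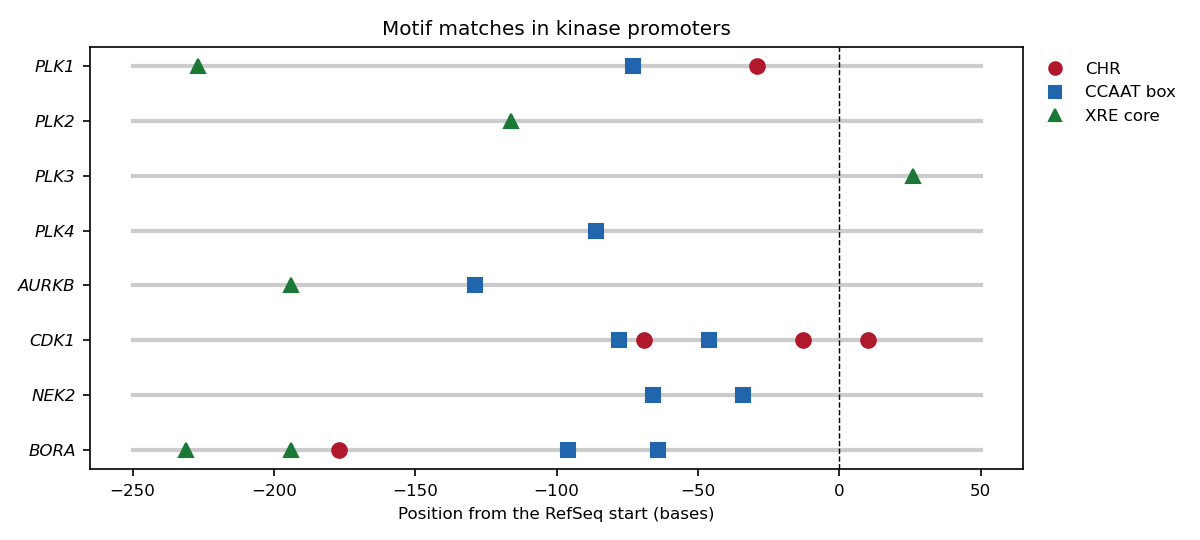
Position of each CHR (TTTGAA, circle), CCAAT box (square) and XRE core GCGTG (triangle) match, in bases from the RefSeq start, in the 300-base windows of 8 kinase genes. CCAAT matches lie from -129 to -34, and the PLK2 and PLK3 windows hold no TTTGAA and no CCAAT.

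CDK1, the engine of mitotic entry, was at 89.1, 86.2 and 86.9 CPM in V cells, 82.7, 95.2 and 97.9 in WT cells, 81.7, 91.5 and 98.7 in SA cells and 82.1, 92.8 and 79.2 in SD cells. Every pair of lines overlapped, and SD against WT gave a log2 fold change of -0.12 with an interval of -0.28 to 0.03. The levels of CDK1 within the WT and SA lines spread more widely than the means of the 4 lines, which ran from 84.7 to 91.9 CPM.

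WEE1, the kinase that restrains CDK1, was at 54.8, 49.8 and 51.9 CPM in V cells, 45.6, 50.6 and 48.7 in WT cells, 46.1, 51.5 and 49.5 in SA cells and 46.4, 43.0 and 41.6 in SD cells. SD cells lay below V cells in every library and overlapped with WT and SA cells. The difference of SD from V cells was -16.2% (log2 fold change -0.25, SE 0.079, edgeR adjusted p = 0.0599), just outside the threshold. It passed with at least 10 counts asked of every library (adjusted p = 0.0493), in 1 fit over the 12 libraries (0.0443) and without SD replicate 1 (0.0350). The ratio of WEE1 to CDK1 was 0.597 ± 0.0189 in V cells, 0.527 ± 0.0275 in WT cells, 0.543 ± 0.0361 in SA cells and 0.518 ± 0.0515 in SD cells (SD, n = 3), and the V libraries lay above those of all 3 AHR lines.

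BORA, the activator of PLK1, was at 13.6, 13.1 and 11.7 CPM in V cells, 7.88, 12.4 and 12.8 in WT cells, 11.4, 12.8 and 11.5 in SA cells and 13.1, 13.1 and 12.5 in SD cells. WT replicate 1 was the lowest of the 12 libraries, and the SE of the log2 fold changes of BORA was 0.161 to 0.164 with WT cells and 0.134 to 0.143 without them. SD against WT gave a log2 fold change of 0.21 with an interval of -0.12 to 0.54. The SD libraries of BORA, unlike those of PLK1, were within the range of V cells.

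The 3 other Polo-like kinases differed from each other. PLK2 was at 191, 166 and 181 CPM in V cells, 187, 183 and 177 in WT cells, 182, 189 and 183 in SA cells and 194, 181 and 178 in SD cells. All pairs of lines overlapped in PLK2, and the interval of SD against SA was -0.12 to 0.12 on the log2 scale. For the same pair the PLK1 estimate was -0.22 with an interval of -0.34 to -0.10, which overlaps that of PLK2. A difference between PLK1 and PLK2 was not tested. PLK3 was at 12.6, 12.5 and 11.6 CPM in V cells, 10.3, 10.2 and 10.0 in WT cells, 11.3, 9.48 and 9.89 in SA cells and 9.01, 9.01 and 10.6 in SD cells.

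PLK3 was thus highest in V cells, with no overlap with any line that received AHR. The differences were -17.1% for WT, -16.7% for SA and -21.8% for SD cells against V cells, and none passed the test (edgeR adjusted p = 0.362, 0.348 and 0.214). These comparisons share the 3 V libraries and are not independent of each other. PLK4, the centriole kinase, was at 28.7, 31.7 and 34.0 CPM in V cells, 30.7, 31.0 and 33.7 in WT cells, 26.7, 29.4 and 30.2 in SA cells and 29.8, 26.4 and 29.5 in SD cells. WT cells were above SA and SD cells in PLK4 without overlap, by a log2 difference of 0.14 against SA (interval -0.05 to 0.33). In SD against WT the PLK4 estimate of -0.15 (interval -0.35 to 0.04) was near that of PLK1, -0.17. NEK2 was at 50.9, 58.9 and 50.5 CPM in V cells, 53.5, 49.1 and 56.9 in WT cells, 49.8, 58.4 and 59.2 in SA cells and 46.4, 57.9 and 47.7 in SD cells, and all lines overlapped.

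**Figure D3:**
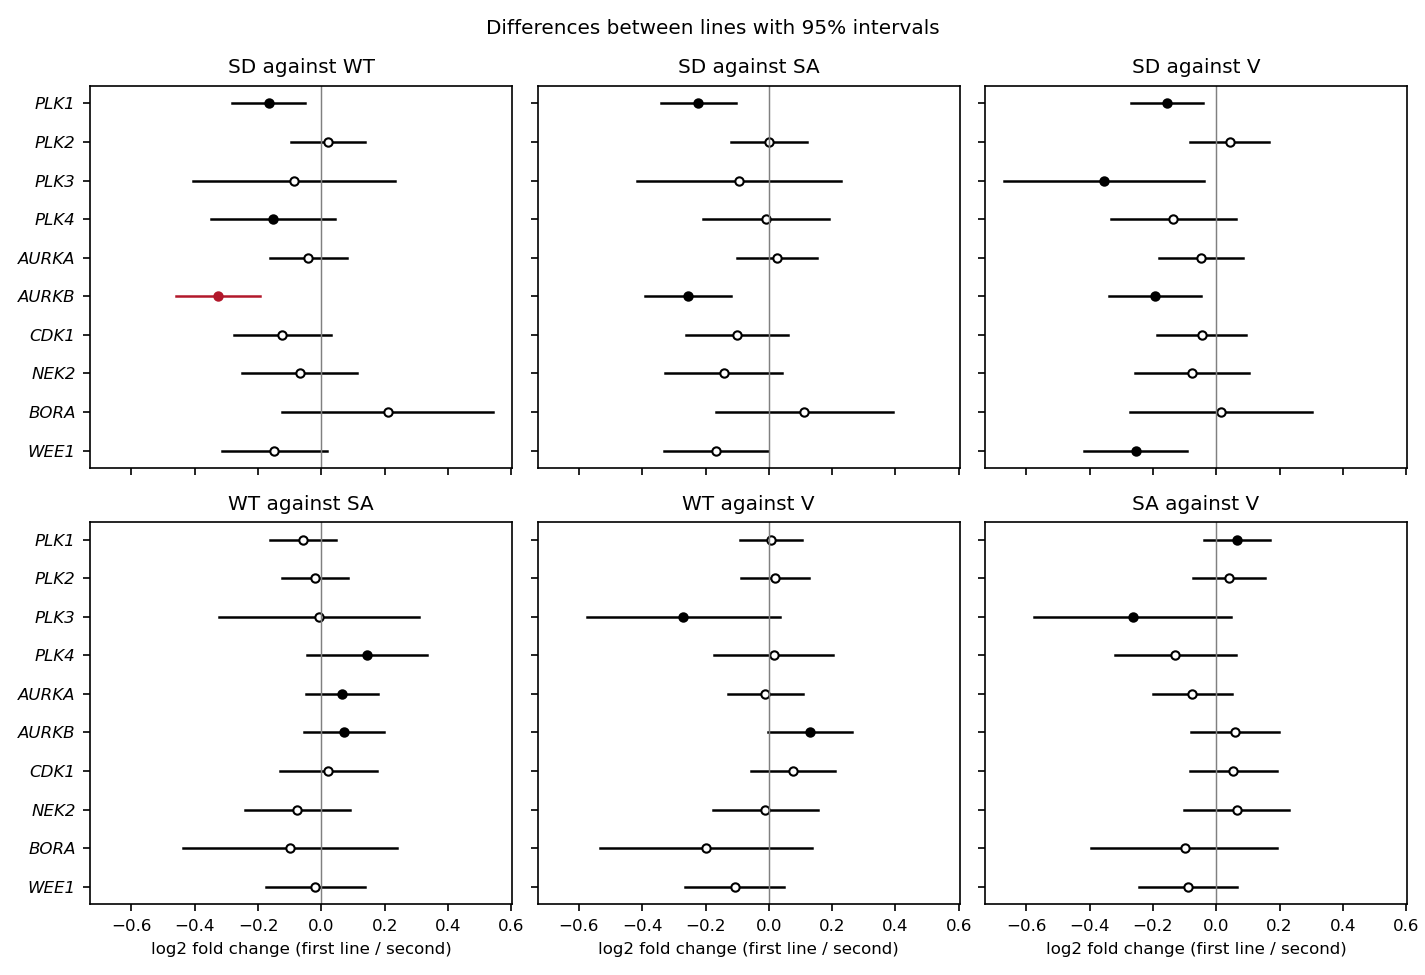
Log2 fold change of each kinase gene in the 6 comparisons of lines (edgeR), with 95% intervals; red marks an adjusted p under 0.05, and filled points mark lines whose libraries do not overlap. AURKB in SD against WT, at -0.33, is the 1 red point, and PLK1 lies below 0 in the 3 comparisons of SD cells.

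Counted over the 10 members, SD against WT cells gave 1 called gene, AURKB, where 0.708% of all 14828 genes tested were called. In that comparison 3 members, PLK1, PLK4 and AURKB, lay below WT cells without overlap of libraries and none above, against 16.0% of all genes in either direction. SD against SA cells gave no called member, with 0.220% of all genes called, and 2 members without overlap (PLK1 and AURKB, both below), with 13.7% of all genes. At an unadjusted p under 0.05 the members were 2 for SD against WT cells (PLK1 and AURKB), with 10.6% of all genes, and 3 for SD against SA cells (PLK1, AURKB and WEE1), with 8.52%. In 1 fit over the 12 libraries PLK1 passed in SD against SA (edgeR adjusted p = 0.0462), and with the replicate number as a block both PLK1 (0.0173) and AURKB (0.0460) did.

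SD against V cells gave no called member (5.41% of all genes were called) and 4 without overlap, PLK1, PLK3, AURKB and WEE1, all below (21.4% of all genes); these 4 were also the members with an unadjusted p under 0.05, a threshold that 17.4% of all genes passed. WT against SA cells gave no called member (0.0803% of all genes) and 3 without overlap, PLK4, AURKA and AURKB, all above (12.8%). WT against V cells gave no called member (5.24% of all genes), AURKB above and PLK3 below without overlap (21.9%). SA against V cells gave no called member (7.17% of all genes), PLK1 above and PLK3 below without overlap (23.8%). In these last 3 comparisons no member had an unadjusted p under 0.05 by edgeR, where 7.31% of all genes did in WT against SA, 17.4% in WT against V and 20.0% in SA against V. DESeq2 also called no member in the comparisons other than SD against WT, where it called 1.

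The median log2 fold change of the 10 members was -0.11 for SD against WT cells, -0.10 against SA cells and -0.11 against V cells, and 8 of the 10 were negative in each. Over all genes tested the medians were -0.00080, 0.00066 and 0.0030. Between WT, SA and V cells the median of the members was within -0.018 and -0.0017. The 3 comparisons of SD cells share the same 3 libraries, so their like medians are not separate observations. Summed over the members, SD cells were at 758 to 788 CPM, and the libraries of V, WT and SA cells were at 805 to 838. The sums include PLK1 and AURKB, whose SD libraries lay below all others, and so are not separate from those values.

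The partners of these kinases were described from lists of known members. Of all 14828 genes tested in SD against WT, 7443 were negative and 0.708% were called. Of 5 partners of CDK1, the cyclins CCNA2, CCNB1 and CCNB2 and the subunits CKS1B and CKS2, none was called in SD against WT, and all 5 values were negative with a median of -0.09. CCNB1, the main B-type cyclin, was at 187 CPM in SD and 205 in WT cells (log2 fold change -0.13, edgeR adjusted p = 0.355). Among 7 partners of the Aurora kinases none was called either, and 6 were negative. BIRC5, the survivin subunit that sits in 1 complex with AURKB, was at 128 CPM in SD and 140 in WT cells (-0.12, edgeR adjusted p = 0.484), a smaller estimate than that of AURKB. INCENP, the scaffold of that complex, was at 113 CPM in SD and 116 in WT cells (-0.03, adjusted p = 0.905), and at 126 CPM in SA cells (SD against SA -0.16, adjusted p = 0.523).

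Among 11 docking partners and substrates of PLK1, 1 was called in SD against WT. CEP55, which acts in the final cut between daughter cells, was at 86.8 CPM in SD and 104 in WT cells and fell by 0.26 on the log2 scale (SE 0.061, edgeR adjusted p = 0.0404), a call that was lost without SD replicate 1 or 2 or without any 1 of the WT libraries (adjusted p = 0.081 to 0.192). RACGAP1, of the central spindle, was at 100 and 111 CPM without passing (adjusted p = 0.379). ECT2, the exchange factor that PLK1 recruits for cytokinesis, averaged 292 CPM in V cells, 260 in WT cells, 249 in SA cells and 251 in SD cells and fell in each AHR line against V (edgeR adjusted p = 0.0228, 0.00278 and 0.0133). ECT2 was thus lower in each line that had received AHR, though the call was lost in WT cells without WT replicate 1 or 3 or V replicate 1 or 3 (adjusted p up to 0.170), in 1 fit over 12 libraries (0.0619) and with the replicate block (0.0698), and in SD cells without SD replicate 2 or 3 or any 1 V library (up to 0.0683).

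Of 6 tested phosphatases and brakes of CDK1, 3 were called in WT against V cells, 1 in SA against V cells and none in the other comparisons. Of all genes tested 5.24% were called in WT against V and 7.17% in SA against V. CDC25B, a phosphatase that activates CDK1, rose from 485 CPM in V to 540 in WT and 546 in SA cells (edgeR adjusted p = 0.0219 and 0.0184). In WT cells PKMYT1, which inhibits CDK1 as WEE1 does, rose by 0.25 (adjusted p = 0.0367) and CDKN1A, the p21 inhibitor, fell by 0.34 on the log2 scale (adjusted p = 0.000217). CDKN1A was at 136 CPM in SD cells against 116 in WT cells without passing the test (0.23, adjusted p = 0.102). These genes do not act in 1 direction on CDK1. The CDC25B calls were lost without V replicate 1 or 2, WT replicate 3 or SA replicate 2 or 3 (adjusted p up to 0.133), and that of WT cells also in 1 fit over 12 libraries (0.052) and with the replicate block (0.0612). The PKMYT1 call was lost without V replicate 2 or 3 or WT replicate 1 or 3 (adjusted p up to 0.225), with DESeq2 (0.0691), in 1 fit over 12 libraries (0.0698) and with the replicate block (0.0904).

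Of 13 tested other mitotic kinases none was called for SD against WT or SA cells. NEK6, a kinase of the NEK2 family, averaged 54.9 CPM in V cells, 65.3 in WT cells, 65.8 in SA cells and 56.8 in SD cells. It rose in SA against V cells (0.26, edgeR adjusted p = 0.0218), while SD and V cells overlapped (0.05, adjusted p = 0.797). None of the 7 partners of PLK4 was called in any comparison. Of the 9 genes of the ubiquitin ligases of mitotic exit, CDC20 rose in WT against V cells (139 to 166 CPM, adjusted p = 0.0050) and FZR1 in SA against V cells (43.0 to 52.6 CPM, adjusted p = 0.0364). UBE2S, at 275 CPM in SD and 324 in SA cells, did not pass (adjusted p = 0.223). Without V replicate 1 or WT replicate 1 the CDC20 call was lost (adjusted p up to 0.0591), without SA replicate 2 or 3 or V replicate 1 or 3 that of NEK6 (up to 0.139), and without SA replicate 1 or 3 or V replicate 2 or 3 (up to 0.175), or with DESeq2 (0.0771), that of FZR1.

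Of 16 regulators of cell cycle transcription 13 were negative in SD against WT and none was called. FOXM1, a driver of late cell cycle genes, averaged 133 CPM in SD cells, below 152 in WT cells and 149 in SA cells without overlap (edgeR adjusted p = 0.134 against WT and 0.459 against SA). Of 9 proliferation markers all were negative in SD against WT with a median of -0.07, and none was called. In SD against SA 4 of the 9 were positive, with a median of -0.0051. Their summed level was 2140 to 2240 CPM in SD cells, 2190 to 2250 in SA cells, 2270 to 2380 in WT cells and 2300 to 2370 in V cells. MKI67 fell by 0.18 in SA against V cells (adjusted p = 0.0136), and RRM2 rose by 0.22 in WT against V cells (adjusted p = 0.0176). The MKI67 call was lost without SA replicate 2 or 3 or V replicate 1 (adjusted p up to 0.0958), and that of RRM2 without V replicate 1 or 3 or WT replicate 1 or 3 (up to 0.113) and with the replicate block (0.0557). The part of the share of proliferating cells in the PLK1 and AURKB values was not tested.

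Among the G1 genes CCND3 fell in each AHR line against V cells from 261 CPM to 189 in WT cells, 197 in SA cells and 185 in SD cells (edgeR adjusted p at most 8.17e-06), and CDK4 rose from 104 CPM to 126 in WT cells and 122 in SA cells (adjusted p = 0.00241 and 0.0204). Of 13 genes of the p53 and stress response, the group to which PLK2 and PLK3 are often assigned, none was called between the AHR lines. BTG2 fell in all 3 AHR lines against V cells from 15.5 CPM to 10.2 in WT cells, 10.3 in SA cells and 9.16 in SD cells (edgeR adjusted p = 0.0159, 0.0157 and 0.00462), the side on which PLK3 also lay without passing. Of the immediate early genes FOSL1 averaged 22.5 CPM in V cells, 39.7 in WT cells, 38.8 in SA cells and 29.9 in SD cells, and it fell by 0.41 in SD against WT (edgeR adjusted p = 0.0231). FOSL1 rose in all 3 AHR lines against V cells and JUN in WT and SA cells, whereas PLK2, an early-induced gene too, was at 179 to 185 CPM on average in every line. The list did not move in 1 direction, since 4 of its 10 tested genes were negative in WT against V. Of these IER2 fell by 0.26 (edgeR adjusted p = 0.0325), a call lost with DESeq2 (0.0592) and with the replicate block (0.0686). Left out 1 at a time, SD replicate 1 or 2 or any WT library ended the FOSL1 call of SD against WT (adjusted p = 0.0503 to 0.129), and V replicate 1 or 3 that of SD against V (up to 0.0623). The BTG2 calls were lost without V replicate 3 (adjusted p = 0.0666 to 0.177) and, in their own comparisons, without SA replicate 2 (0.0573) or WT replicate 1 or 3 (up to 0.0712), and the CDK4 call of SA cells without SA replicate 2 or 3 or V replicate 1 or 3 (up to 0.117).

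**Figure D4:**
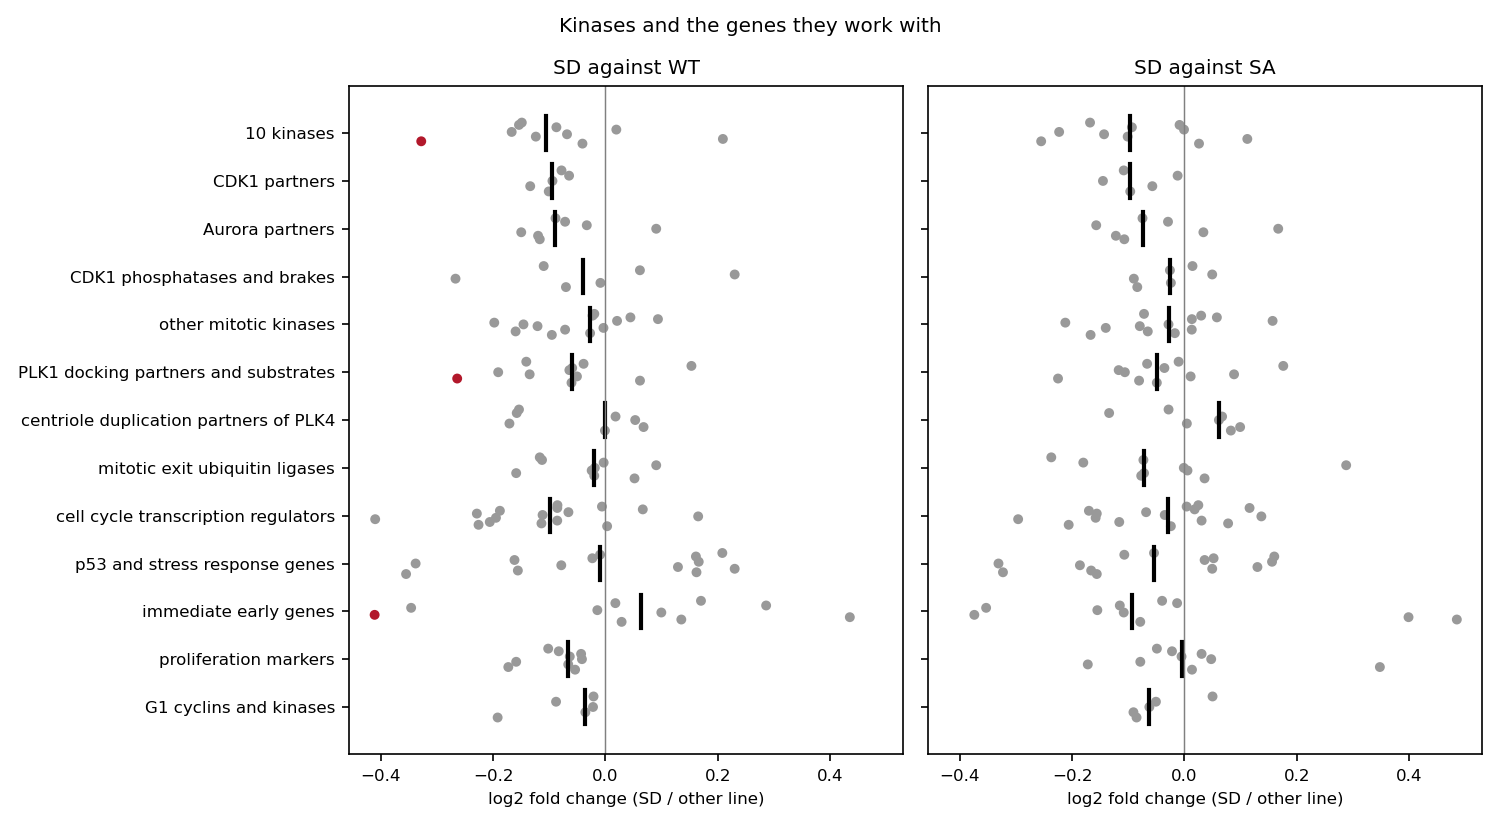
Log2 fold change of the 10 kinases and of the genes of 12 lists in SD cells against WT cells and against SA cells; each point is 1 gene, black bars are list medians, and red marks an adjusted p under 0.05 (edgeR). The red points in SD against WT are AURKB, CEP55 and FOSL1, and no gene of these lists passed in SD against SA.

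Across the 12 libraries the member whose level was most like that of PLK1 was AURKB (Pearson's r = 0.779 of log2(CPM + 1), n = 12 libraries), at rank 33 of 11786 genes. WEE1 (0.542) and NEK2 (0.521) followed, CDK1 was at 0.366, and AURKA (0.108), PLK2 (-0.107) and BORA (-0.333) were lower. After the line means were taken off, the values were 0.492 for NEK2, 0.321 for AURKA, 0.172 for AURKB and -0.351 for WEE1, so the likeness of AURKB and WEE1 to PLK1 lay between the lines rather than among replicates of 1 line. The genes most like PLK1 were ANKRD27 (0.878), ZPR1 (0.872), HTR1D (0.869), PYCR1 (0.864) and CAVIN2 (0.860). The libraries share lines, and these values are a description over 4 lines.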

How the data were processed

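RNA-seq of 12 libraries was used, 3 per line. The authors trimmed reads with Trimmomatic 0.39, mapped them to GRCh38 transcripts with RSEM and deposited expected counts per gene, without normalization. The deposited columns named A and D were read as SA and SD, after the residue that replaces the serine. From these, counts were rounded to whole numbers (3.24% to 3.61% of values were not whole) and tested with edgeR 4.0.16 (R 4.3.3): filterByExpr (minimum count 10, total 15), TMM factors (0.9926 to 1.005), a quasi-likelihood fit of each pair of lines on its 6 libraries, two-sided, and Benjamini-Hochberg adjustment over all genes tested, called at 0.05. DESeq2 1.42.0 was an alternative, as were other filters, 1 fit over 12 libraries, a replicate block and leaving out each library. CPM used TMM library sizes. Intervals are 95%. Replicates are biological per the labels, and counting errors cover counting only. The 3 libraries of a line were compared, and none was a copy of another.

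Named genes were all members, AHR, and from each list up to 4 called genes by size of change with up to 2 uncalled ones of lowest p, a selection of which is printed. The likeness ranking used genes of mean CPM 5 or more. The members and lists were chosen with earlier results of these data known. Of the 60623 genes 60295 are in GENCODE v44, and the members' coordinates are the same there. Scripts were tested on simulated data. The second deposited table, of the authors' own log2 fold changes, p-values and q-values, was not used.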

Additional observations from a re-analysis of the deposited data

How the results depend on the processing

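Over the 10 members and 6 comparisons, 60 log2 fold changes were recomputed under 12 alternatives each, and 679 of the 720 recomputed values kept direction and call. Only AURKB in SD against WT was called in the main test. For every other value, keeping the call meant staying uncalled, so this number says little about how stable the estimates were. The number of members called in SD against WT ranged from 0 to 1 over single libraries left out, and in SD against V from 0 to 1. In SD against SA it was 1 in 1 fit over the 12 libraries and 2 with the replicate block, and in SD against V it was 1 with at least 10 counts in every library and in the fit over 12 libraries. The cause was not tested. With the replicate block 0 members were called in the comparisons other than SD against WT (1) and SD against SA (2). The replicate numbers were not taken to pair the samples, since the correlation of same-numbered deviations ran from -0.0755 to 0.133 and exceeded 0.1 in 1 of 18 pairs.

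Calls over all genes changed from 105 to 252 in SD against WT, from 33 to 153 in SD against SA and from 12 to 103 in WT against SA when every gene with at least 1 count was tested. With the replicate block they were 245, 165 and 25, and 507 in place of 774 in WT against V. In 1 fit over 12 libraries WT against SA gave 5. With single libraries left out they ranged from 45 to 145 in SD against WT, 11 to 56 in SD against SA, 2 to 25 in WT against SA, 434 to 720 in WT against V, 621 to 1195 in SA against V and 502 to 856 in SD against V.

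Of the member values, 19 changed sign when 1 library was left out, none of them called, and 41 did not. On the log2 scale the ranges were, in SD against WT, -0.019 to 0.046 for PLK2. In SD against SA they were -0.040 to 0.026 for PLK2, -0.059 to 0.043 for PLK4 and, among the list genes, -0.015 to 0.13 for CNTROB. In WT against SA they were -0.038 to 0.0028 for PLK2, -0.060 to 0.068 for PLK3, -0.046 to 0.090 for CDK1, -0.20 to 0.078 for BORA and -0.061 to 0.018 for WEE1. In WT against V they were -0.0055 to 0.027 for PLK1, -0.032 to 0.069 for PLK2, -0.048 to 0.073 for PLK4, -0.079 to 0.027 for AURKA and -0.063 to 0.066 for NEK2. In SA against V they were -0.011 to 0.092 for PLK2, -0.0076 to 0.10 for AURKB and -0.010 to 0.13 for CDK1. In SD against V they were -0.010 to 0.091 for PLK2, -0.11 to 0.0011 for CDK1 and -0.048 to 0.060 for BORA. Depth limited the weakly expressed members most, since the counting error of the mean count was 9.73% for PLK3 and 9.03% for BORA against 2.39% for PLK1.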
